A study of Mus musculus with 25 samples.

Results

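A set of 10 transcription factor genes known from neurons of the arcuate nucleus and its neighbours at the base of the hypothalamus were followed through 25 single mouse neurons. The genes were Six3, Six6, Isl1, Tbx3, Nkx2-1, Otp, Sox14, Tbx19, Nr5a1 and Fezf1, 10 of the 30903 gene symbols in the table. They were taken by name, but with earlier results of these data known, so they are not a blind choice. All 25 cells form 1 group. Tissue of the arcuate nucleus with the median eminence was pooled from 2 adult male RIP-Cre mice of the strain (C57BL/6 x DBA)F2 and with an average age of 63 days. In RIP-Cre mice the Cre recombinase is made under a rat insulin promoter. A virus (AAV-loxSTOPlox-GFP) carried a green fluorescent protein gene that is expressed once Cre has removed a stop sequence, and fluorescent cells were picked by hand, so the sample covers only cells that the virus reached and in which Cre had acted. There is no untreated or other group, cells of 1 pool are not replicates, and no test between groups could be made. The values are therefore a description of these cells, which the labels number 1 to 43 with gaps.

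Transcription factors of this kind bind DNA and set which transmitter, peptide and receptor genes a neuron uses. In the developing basal hypothalamus the homeodomain proteins SIX3, SIX6 and NKX2-1 act early and broadly, whereas ISL1, TBX3 and OTP are known for specifying single peptide classes, among them the neurons that make pro-opiomelanocortin (Pomc) and agouti-related peptide (Agrp). NR5A1, also called SF-1, and FEZF1 are known from the adjoining ventromedial nucleus, and TBX19, also called TPIT, is known as the factor that switches on Pomc in the pituitary.

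The values are RPKM, read numbers scaled to gene length and to the reads of the cell, so levels of different genes can be set side by side. Detection was set at a level of at least 10 RPKM. Depth, estimated from the spacing of the low values, was 832000 to 2905000 reads per cell, with a median of 1737000. At the median depth, 10 RPKM corresponds to between 35.9 reads for Sox14 and 115 reads for Tbx3, so the level lies well above single reads for each of the 10 genes. A value of exactly 0 is given as listed at 0, since even the synaptic gene Syt1 was listed at 0 in 2 of the 25 cells and the neuronal gene Elavl4 in 3. Intervals on shares of cells are exact Clopper-Pearson 95% intervals and cover counting error only. For a gene in 0 of 25 cells a fixed limit of 3 cells of the 25, a share of 12%, is used in place of such an interval. As a check of the cell type, Snap25, Tubb3, Stmn2 and Uchl1 of neurons were detected in all 25 cells.

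Sequence before the RefSeq start site is shown for 4 of the genes. The 4 differ in how widely they were detected: Six3 and Isl1 in most cells, Tbx19 and Otp in few. The RefSeq table (GRCm38.p6) held such a window for 8 of the 10 members and none for Tbx3 and Nr5a1. Each line gives, 5′ to 3′, the part of the 250 bases before the RefSeq start site that lies outside annotated exons. Capitals mark TAATTA, a core read by many homeodomain proteins, and CCAAT, the CCAAT box, which appears as ATTGG where it lies on the other strand. Both were searched on both strands, and they do not overlap each other in these windows.
Six3: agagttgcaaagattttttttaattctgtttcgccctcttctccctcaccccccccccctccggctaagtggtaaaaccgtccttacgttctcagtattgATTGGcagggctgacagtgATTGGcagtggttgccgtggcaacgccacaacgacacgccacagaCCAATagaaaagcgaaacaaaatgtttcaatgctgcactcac
Isl1: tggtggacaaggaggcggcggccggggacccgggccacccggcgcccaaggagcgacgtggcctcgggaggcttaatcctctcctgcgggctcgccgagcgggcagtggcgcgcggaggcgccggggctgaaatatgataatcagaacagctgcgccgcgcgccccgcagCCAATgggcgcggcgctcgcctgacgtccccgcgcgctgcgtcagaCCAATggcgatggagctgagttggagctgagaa
Tbx19: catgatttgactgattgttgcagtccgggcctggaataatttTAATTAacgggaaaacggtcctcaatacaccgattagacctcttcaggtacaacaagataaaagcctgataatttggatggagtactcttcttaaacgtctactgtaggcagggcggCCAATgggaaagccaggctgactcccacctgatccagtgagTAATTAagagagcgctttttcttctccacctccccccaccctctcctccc
Otp: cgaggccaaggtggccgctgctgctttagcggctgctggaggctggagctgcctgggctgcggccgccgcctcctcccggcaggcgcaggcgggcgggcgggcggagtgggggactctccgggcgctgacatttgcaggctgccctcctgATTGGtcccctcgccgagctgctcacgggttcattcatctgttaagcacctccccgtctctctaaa
The stretch of Six3 is chr17:85620584-85620789 (plus strand), that of Isl1 chr13:116309690-116309938 (minus strand), that of Tbx19 chr1:165160774-165161023 (minus strand) and that of Otp chr13:94875386-94875601 (plus strand). The stretch of Six3 lies within the span given below for that gene, 85613608 to 85629302, which comes from another annotation (GENCODE). For Six3 it is thus not upstream of that span. Tbx19 was the only one of the 8 members with TAATTA in its window and held it at 2 places. One or more copies occurred in 4.84% and 2 or more in 0.444% of all 32851 windows of the same length. CCAAT was found 3 times for Six3, 2 times for Isl1 and 1 time each for Tbx19 and Otp. In the windows not printed it was found 3 times for Fezf1, 2 for Six6, 1 for Sox14 and 0 for Nkx2-1. Those of Fezf1 and Six6 partly overlap annotated exons. The number of copies thus did not follow how widely the genes were detected. Of all windows, 33.8% held at least 1 copy, 10.1% at least 2 and 2.79% at least 3. These matches describe the letters and say nothing of what binds there.

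Six6 and Six3 were the most widely detected members. Both encode homeodomain proteins of 1 family, known for forming the eye field, the ventral forebrain and the pituitary. Six6 (chromosome 12, 72939892 to 72944899, GRCm38) was detected in 23 cells (92%, interval 74.0 to 99.0%). Its median over all cells was 34.1 RPKM, and cell 1 was highest at 89.5 RPKM. It was listed at 0 in cell 7 and stood at 1.87 RPKM in cell 2. Six3 (chromosome 17, 85613608 to 85629302) was detected in 22 cells (88%, interval 68.8 to 97.5%). Its median was 24.0 RPKM, cell 43 was highest at 66.0 RPKM, and cells 6, 7 and 11 were listed at 0. So wide a spread over the cells was shared by few genes: 4.58% of all genes reached the level in at least 23 cells and 5.39% in at least 22. Among the cells that had them, the values covered 13.0 to 89.5 RPKM for Six6, a 6.87-fold range, and 12.1 to 66.0 RPKM for Six3, a 5.47-fold range.

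The pair was found together in 21 cells, which are 95.5% of the Six3 cells and 91.3% of the Six6 cells. Every cell but cell 7 had at least 1 of them. Their levels were nevertheless loosely related from cell to cell: over the 25 cells, which share animals and protocol but differ in depth, Pearson r of log2(RPKM + 1) was 0.34 and Spearman rho 0.06. Cell 43, the highest for Six3, had Six6 at 21.2 RPKM, below the median of that gene, and cell 1, the highest for Six6, had Six3 at 28.1 RPKM. Raising the level to 20 RPKM left Six3 in 17 cells and the pair in 13.

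**Figure D1:**
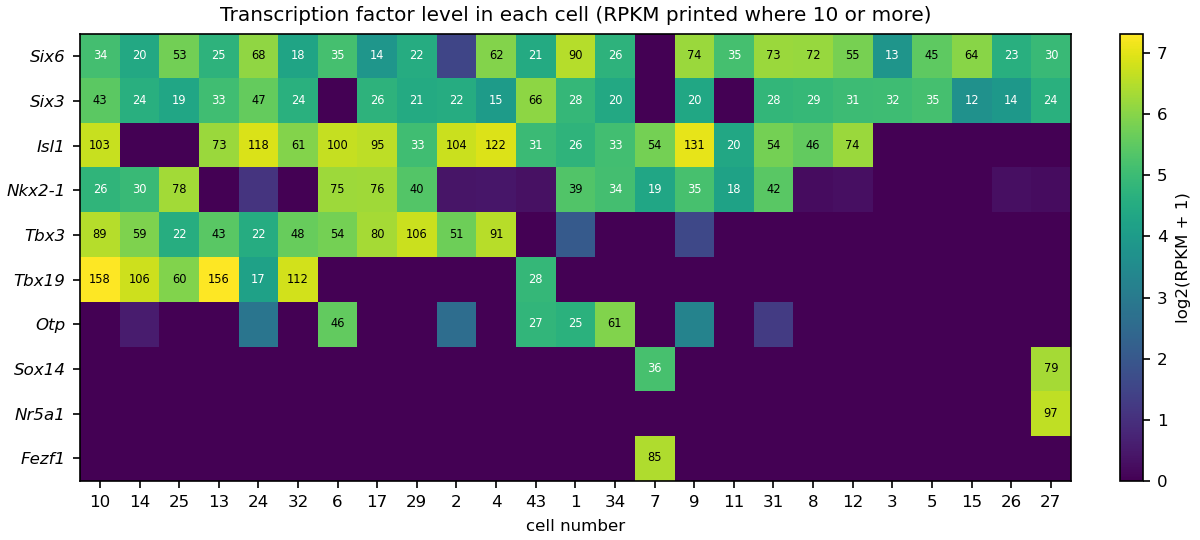
Level of the 10 transcription factor genes (rows) in each of the 25 cells (columns, named by cell number and ordered by detection of Tbx3, then Tbx19, Nkx2-1, Isl1 and Otp), coloured by log2(RPKM + 1), with the RPKM printed where it was 10 or more. Six6 and Six3 run across nearly all cells, the 11 Tbx3 cells stand at the left with 6 of the 7 Tbx19 cells among them, and Sox14, Nr5a1 and Fezf1 appear in cells 7 and 27 only.

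Isl1 had the highest median of the 10 genes over all cells. It encodes a LIM homeodomain protein that is known to bind and activate the Pomc gene and that also marks other arcuate neurons. Isl1 (chromosome 13, 116298281 to 116309689) was detected in 18 cells (72%, interval 50.6 to 87.9%), beside 8.64% of all genes that reached the level in at least 18 cells. It was listed at 0 in the other 7 cells and took no value in between. In the 18 cells it spanned 19.8 RPKM in cell 11 to 131 RPKM in cell 9, with a median of 67.1 RPKM. The 7 cells at 0 were 3, 5, 14, 15, 25, 26 and 27. All of them had Six3 and Six6, and 5 of them (3, 5, 15, 26 and 27) had neither Tbx3 nor Nkx2-1 at the level either.

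Nkx2-1 showed a gap between 2 sets of values. The gene encodes a homeodomain protein required for the ventral hypothalamus to form, and lies on chromosome 12 from 56531958 to 56536908. It was detected in 12 cells (48%, interval 27.8 to 68.7%), where it covered 17.7 RPKM in cell 11 to 77.8 RPKM in cell 25, with a median of 37.3 RPKM. A further 8 cells held 0.19 to 1.14 RPKM, which corresponds to an estimated 0.916 to 4.79 reads, and 5 were listed at 0. No cell lay between 1.14 and 17.7 RPKM. Counting any value above 0 therefore raised its share from 48% to 80% of the cells.

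Tbx3 was detected in 11 of the 25 cells, at a median above that of Six3, Six6 and Nkx2-1 in theirs. TBX3 is a T-box factor known to be needed for the peptide identity of arcuate neurons. The gene (chromosome 5, 119670669 to 119684724) was detected in 11 cells (44%, interval 24.4 to 65.1%), with 22.1 RPKM in cell 24 as the lowest of these values, a median of 54.1 RPKM and 106 RPKM in cell 29 as the highest. Cells 1 and 9 had 3.20 and 2.02 RPKM, and the other 12 cells were listed at 0. The share of all genes that reached the level in at least 11 cells was 16%, and in at least 12 cells 14.7%.

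Isl1, Tbx3 and Nkx2-1 were found in several combinations. Of the 25 cells, 4 had all of these genes, 13 had exactly 2, 3 had 1 and 5 had none. Isl1 was found in 9 of the 11 Tbx3 cells (81.8%) and in 10 of the 12 Nkx2-1 cells (83.3%), next to 72% of all cells. Tbx3 and Nkx2-1 shared 6 cells, which are 54.5% of the Tbx3 cells and 50% of the Nkx2-1 cells, next to 44% and 48% of all cells. With so few cells these shares carry wide intervals, and no order among the pairs was read from them.

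Tbx19 marked a set of 7 cells that nearly all had Tbx3. The gene (chromosome 1, 165137855 to 165160773) was detected in cells 10, 13, 14, 24, 25, 32 and 43 (28%, interval 12.1 to 49.4%) and was listed at 0 in the other 18, while 22.3% of all genes reached the level in at least 7 cells. Its values were 158 RPKM in cell 10, 156 in cell 13, 112 in cell 32, 106 in cell 14, 60.3 in cell 25, 28.0 in cell 43 and 17.1 in cell 24. It held the highest single value of all 10 genes and the widest range among the cells that had it, at 9.28-fold. Tbx3 was present in 6 of these cells, which are 85.7% of the Tbx19 cells and 54.5% of the Tbx3 cells. The exception was cell 43, where Tbx3 was listed at 0. All 7 had Six3 and Six6, 5 had Isl1 and 3 had Nkx2-1. Over all cells, Tbx3 was in 44%, Tbx19 in 28%, Six3 in 88%, Six6 in 92%, Isl1 in 72% and Nkx2-1 in 48%.

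Since TBX19 is known from the pituitary, the other genes of that tissue were read in the same cells. The pituitary markers Pitx1, Pou1f1, Tshb, Cga and Prl were listed at 0 in all 25 cells, and Gh was above 0 only in cell 4, which had no Tbx19. All 7 Tbx19 cells instead had Gad1 at 76.3 to 110.1 RPKM and Gad2 at 35.5 to 154 RPKM, the enzymes that make the transmitter GABA, compared with 16 and 12 of the other 18 cells. Pomc was detected in 5 of the 7, at 11.0 RPKM in cell 14, 22.9 in cell 32, 46.6 in cell 13, 50.4 in cell 10 and 232 in cell 43, and in 5 of the other 18. Among the 7, Pomc was thus at its highest in the cell without Tbx3, and cells 24 and 25 were listed at 0. Trh, which encodes thyrotropin-releasing hormone, was found in 2 of the 7 (cells 14 and 25, at 109 and 59.4 RPKM) and was listed at 0 in all others. These were also the 2 Tbx19 cells in which Isl1 was listed at 0. How many of all genes in 2 cells lie in Tbx19 cells only was not counted, so no link of Trh to Tbx19 is read from this.

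Otp was restricted to 4 cells at the level, with a tail of lower values. OTP is a homeodomain protein known for the development of neuroendocrine and Agrp neurons, and its gene lies on chromosome 13 from 94875602 to 94885130. It stood at 60.5 RPKM in cell 34, 45.8 in cell 6, 27.1 in cell 43 and 24.5 in cell 1 (16% of cells, interval 4.54 to 36.1%), beside 28.8% of all genes that were detected in at least 4 cells. A further 5 cells held 0.47 to 8.60 RPKM and 16 were listed at 0. All 4 Otp cells had Isl1 and Six6, 3 had Nkx2-1, and 1 each had Tbx3 (cell 6) and Tbx19 (cell 43). Over all cells, Isl1 was in 72%, Six6 in 92%, Nkx2-1 in 48%, Tbx3 in 44% and Tbx19 in 28%.

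Sox14, Nr5a1 and Fezf1 were confined to cells 7 and 27 among the 25 cells. Sox14, which encodes a repressor of the SOX family, stood at 35.7 RPKM in cell 7 and at 78.7 in cell 27 (8%, interval 0.984 to 26.0%). Fezf1 was at 85.4 RPKM in cell 7 alone and Nr5a1 at 96.6 RPKM in cell 27 alone (4% each, interval 0.101 to 20.4%), and each of the 3 genes was listed at 0 in every other cell. At least 1 cell was reached by 42.7% of all genes and at least 2 cells by 35.8%. Cells 7 and 27 are also the cells in which the vesicular glutamate transporter Slc17a6 was detected, at 149 and 20.7 RPKM. Both also had the GABA enzyme gene Gad1 listed at 0, whereas it was detected in all 23 other cells. How many of all genes are placed like Slc17a6 or Gad1 was not counted, so these overlaps are description only. The 2 cells differed in other markers. Cell 27 had the GABA enzyme gene Gad2 at 109 RPKM and the ventromedial peptide gene Adcyap1 listed at 0. Cell 7 had Gad2 at 0.86 RPKM and Adcyap1 at 220.5 RPKM. Bdnf, another listed ventromedial marker, was at 11.0 RPKM in cell 7 and at 0 in cell 27. It was also detected in cells 6, 8 and 26, up to 25.7 RPKM. The remaining members divided the 2 cells: cell 7 had Isl1 at 53.7 RPKM and Nkx2-1 near its lowest detected level, with Six3 and Six6 listed at 0, and cell 27 had Six3 at 24.2 RPKM and Six6 at 30.1 RPKM with Isl1 listed at 0 and Nkx2-1 at 0.19 RPKM. Tbx3, Otp and Tbx19 were listed at 0 in both. Sox14 lies on chromosome 9 (99874106 to 99876170), Nr5a1 on chromosome 2 (38692656 to 38714542) and Fezf1 on chromosome 6 (23245044 to 23248362). Of the 10 genes, grouped here as factors of arcuate identity, these 3 were the rarest, and Nr5a1 and Fezf1 are the ones known from the ventromedial nucleus.

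**Figure D2:**
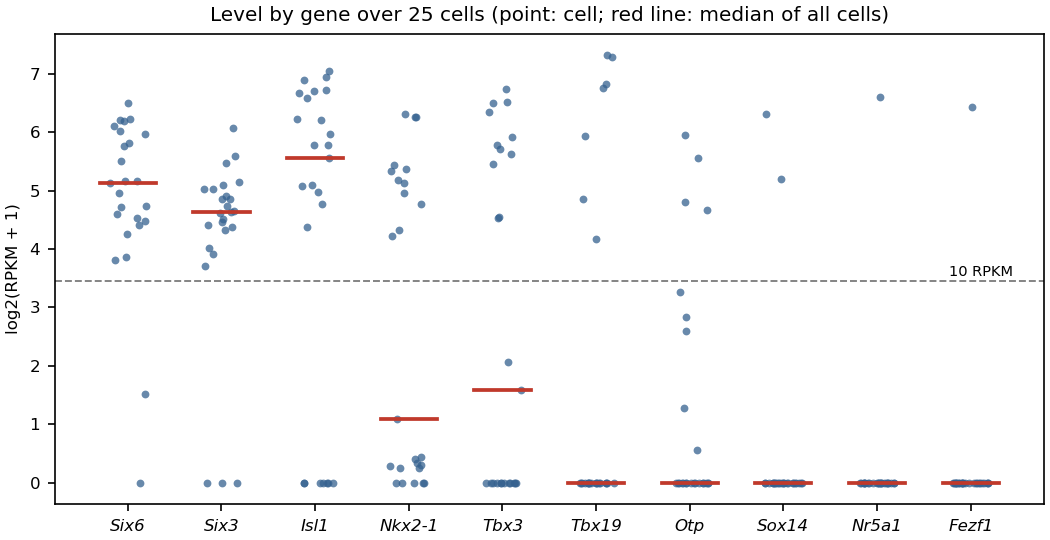
Level of each gene as log2(RPKM + 1), with 1 point per cell, the median over all 25 cells as a red line and the detection level of 10 RPKM as a dashed line. Points between 0 and the dashed line belong to Nkx2-1 (8 cells), Otp (5), Tbx3 (2) and Six6 (1).

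Ordered by the median over all cells, Isl1 (46.0 RPKM) came before Six6 (34.1), Six3 (24.0), Tbx3 (2.02) and Nkx2-1 (1.14), and the other 5 had a median of 0. Each step between neighbours down to Tbx3 was smaller than the SD over cells of at least one of the neighbours (44.7, 24.8, 14.7 and 35.3 RPKM in that order), so the order is not separated from the spread. Among the cells that had the gene, the order by median was Tbx19 (106 RPKM), Isl1 (67.1), Tbx3 (54.1), Nkx2-1 (37.3), Otp (36.4), Six6 (34.7) and Six3 (24.9), and the ranges of all these neighbours overlapped. Six6 and Six3, detected in the most cells, thus stood lowest of these 7 where present.

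Each cell held 2 to 6 of the 10 genes, with a median of 4. There were 4 cells with 2 of them, 4 had 3, 5 had 4, 11 had 5 and 1, cell 10, had 6. The 25 cells showed 15 different combinations, and 8 of these were seen in 1 cell only. The most frequent was Six3 with Six6 alone, in cells 3, 5, 15 and 26, of which 3 and 5 are among the 6 cells with Malat1, a nuclear RNA, below 20 RPKM. Next came Six3, Six6, Isl1, Tbx3 and Tbx19, in cells 13, 24 and 32. Over the extremes of depth the numbers overlapped: the 5 shallowest cells held 4 to 5 and the 5 deepest held 2 to 6.

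**Figure D3:**
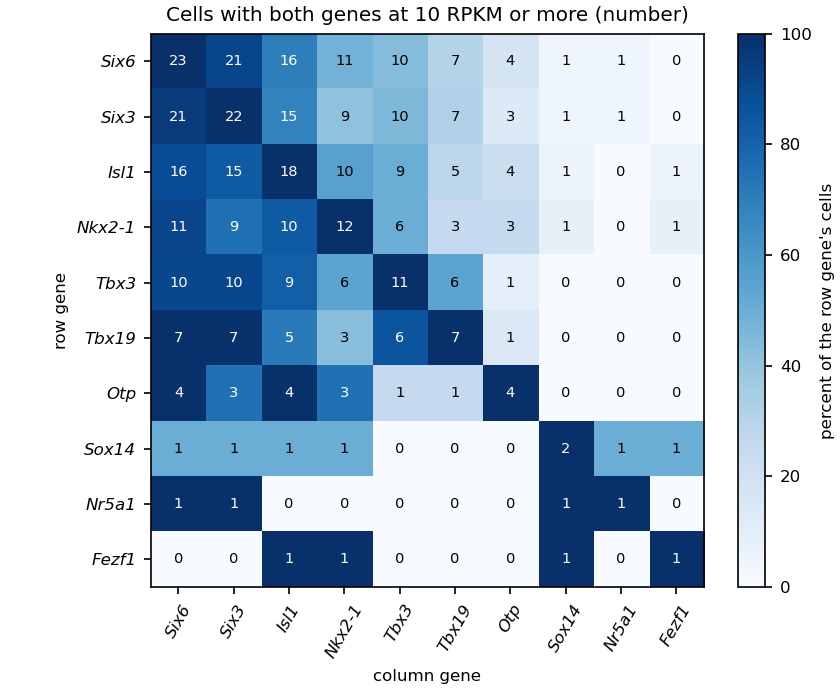
Number of cells in which the row gene and the column gene were both at 10 RPKM or more, with the diagonal giving all cells of a gene and the colour giving the share of the row gene's cells. Tbx19 shared 6 of its 7 cells with Tbx3, and the rows of Sox14, Nr5a1 and Fezf1 have no cell in common with Tbx3, Tbx19 or Otp.

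The peptide and transmitter genes of the cells were read against the factors. Cartpt, which encodes the peptide CART, was detected in 10 cells, and all 10 had Isl1. In the 7 cells without Isl1, Cartpt reached at most 1.91 RPKM, whereas the Isl1 cells went up to 529 RPKM, 8 of them below the level. Of the genes detected in at least 10 cells, 0.354% (19 of 5362, Cartpt included) were found in Isl1 cells only. The peptide genes Gal and Pthlh, in 5 cells each, were also seen in Isl1 cells only, as were 3.66% of the genes in at least 5 cells. Of the 53 genes on the lists given below that reached the level in at least 3 cells, 11 (20.8%) were in Isl1 cells only, compared with 8.79% of all genes in at least 3 cells. For Six6 and Six3, which leave few cells out, these were 26 (49.1% beside 31.4%) and 13 (24.5% beside 20.7%). For Nkx2-1 they were 3 (5.66% beside 1.43%), for Tbx3 2 (3.77% beside 1.24%), and for Otp and Tbx19 0, beside 0.0204% and 0.245% of all genes. These shares, and those below without an upper limit of cells, include genes detected in too many cells to be so placed. Listed genes and all genes were not matched for the number of cells. The lists were also chosen with earlier results known, so the differences in share are no test.

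Sst, the gene of somatostatin, was found in 5 cells, and all 5 had Nkx2-1. The values of Nkx2-1 in these cells were 39.4 RPKM in cell 1, 75.4 in cell 6, 35.1 in cell 9, 77.8 in cell 25 and 42.2 in cell 31. Sst was listed at 0 in the other 7 Nkx2-1 cells and in all 13 remaining ones. The homeobox gene Bsx, in 4 of the Sst cells, and the LIM-only cofactor gene Lmo2, in cells 9, 14, 29 and 34, were the other listed genes found in Nkx2-1 cells only. Among all genes, 0.283% of those in at least 5 cells and 0.618% of those in at least 4 were so placed. Cells 1, 6 and 31, which hold Sst and Bsx, are among the 6 cells low in Malat1. Without the 6 cells, Sst remained in 2 cells, 9 and 25, both with Nkx2-1. These and cell 31 are among the 5 shallowest cells. Without the 5 shallowest, Sst with Nkx2-1 remained in 2 of 20 cells. The part of depth and of this difference in RNA content was not tested.

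All 4 Otp cells had Agrp, at 13.7 RPKM in cell 1, 25.8 in cell 6, 25.9 in cell 34 and 50.6 in cell 43. Agrp was also detected in 5 of the 21 other cells, up to 37.6 RPKM, so the 2 sets overlap in level. Cells 1 and 6 are low in Malat1. Cells 34 and 43 are not, but they are among the 5 shallowest cells. Agrp with Otp remained in 2 of 20 cells without the 5 shallowest and in 2 of 19 without those low in Malat1. At 20 RPKM the pair was in 3 cells. The part of depth and RNA content in this was not tested. Of the genes detected in 4 to 9 cells, 0.283% (10 of 3533) included all 4 Otp cells. Npy, the usual partner of Agrp, was in 1 of the 4, cell 34. Corin, also listed as a marker of Agrp neurons, was detected in cells 5 and 26, which had no Otp.

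Tbx3 and the dopamine gene Th, which encodes tyrosine hydroxylase, shared no cell. Th was detected in 8 cells at 186 to 784 RPKM. In these cells Tbx3 was listed at 0, apart from 3.20 RPKM in cell 1. In the 11 Tbx3 cells Th was listed at 0, apart from 0.45 RPKM in cell 25. This pair was picked after its values were seen. Of the 6353 genes detected in at least 8 cells, 2 (0.0315%) were absent at the level from all Tbx3 cells, Th and Agfg2. At 7 cells or more there were 9 such genes of 6899 (0.13%), among them the LIM homeodomain gene Lhx1 and its antisense gene Lhx1os, which were both listed at 0 in all 11. Lhx1 was found in 7 cells, all with Six6, which was in 92% of all cells. It was accompanied by Isl1 in 3 and by Nkx2-1 in 1. Of the 8 Th cells, 5 had Isl1 and 2 had Nkx2-1.

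Pomc was detected in 5 of the 11 Tbx3 cells and in 5 of the 14 others. Its 2 highest values were 481 RPKM in cell 29, with Tbx3 at 106 RPKM, and 232 RPKM in cell 43, with Tbx3 listed at 0. Of the 10 Pomc cells, 8 had Isl1, at 30.6 to 131 RPKM, and all 10 had Six3 and Six6. Over all cells, Isl1 was in 72%, Six3 in 88% and Six6 in 92%.

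**Figure D4:**
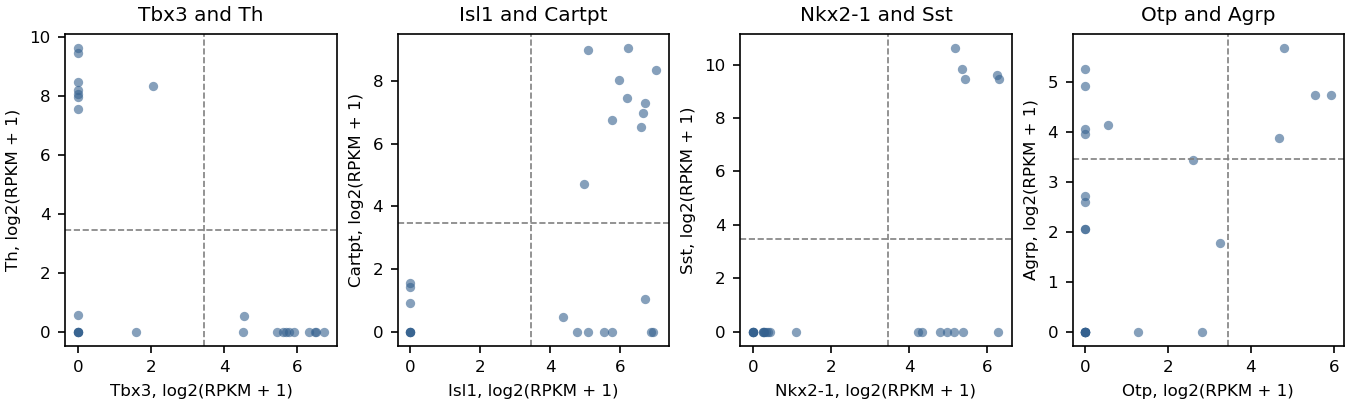
Each panel sets 1 factor (x axis) against 1 transmitter or peptide gene (y axis), both as log2(RPKM + 1), with 1 point per cell and dashed lines at 10 RPKM. No cell lies in the upper right of the panel of Tbx3 and Th, and none in the upper left of the panels of Isl1 with Cartpt and of Nkx2-1 with Sst.

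Relatives of the members were detected to different extents, beside 42.7% of all genes that reached 10 RPKM in at least 1 cell. Of 14 further T-box genes, none reached 10 RPKM in any cell, 10 were listed at 0 throughout, and Tbx21 was highest at 5.01 RPKM, so Tbx3 and Tbx19 were the only 2 of the 16 T-box genes read here that were detected. Of 8 other NKX genes 1 was detected, Nkx2-4 at 51.2 RPKM in cell 25, the cell with the highest Nkx2-1. Of the LIM homeodomain genes on the list, Lhx1 was found in 7 cells and Lhx2 and Lhx5 in 1 each, and Isl2 was listed at 0 in all. Of the relatives of Six3, Six4 and Six5 were listed at 0 in all cells and Six2, which lies beside Six3, reached 9.75 RPKM in cell 43, where Six3 was also at its highest. The relatives of NR5A1 and FEZF1 gave Nr5a2 in cell 26 (18.1 RPKM) and Fezf2 in none. Nr0b1, known as a repressor of NR5A1, stood at 143 RPKM in cell 9 and at 23.2 in cell 26, neither of which had Nr5a1.

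Genes of proteins known to work with these factors were read in the same way. Of 15 relatives and partners of SIX3 and SIX6, 8 were detected. Aes and Tle2, of the Groucho family of corepressors, were in 25 and 15 cells, at medians of 112 and 53.7 RPKM in the cells that had them. Dach1, a corepressor, was in 6 cells, all of them with Isl1, as were 3.66% of the genes in at least 5 cells. Tle1 was in 4 cells, all with Tbx3, as were 0.483% of the genes in at least 4 cells. Among cofactors of LIM proteins, the LIM-only gene Lmo3 was in 17 cells, the LIM-binding gene Ldb2 in 13, Lmo4 in 11 and Ldb1 in 9. At least 1 of the binding genes Ldb1 and Ldb2 was detected in 13 of the 18 Isl1 cells and in 4 of the 7 others. Of 9 other SOX genes, Sox11 was in 11 cells and Sox4 in 8, and Sox2 stayed below 10 RPKM. Of 7 partners of OTP, Arnt2 was in 9 cells, none of them an Otp cell, Pou3f1 in 3 and Pou3f4 in 1. Sim1 and Pou3f2 were listed at 0 in all cells. How many of all genes miss the Otp cells as Arnt2 does was not counted. With so few Otp cells, nothing about Otp is read from that absence.

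Among 10 regulators of the Pomc gene, the glucocorticoid receptor Nr3c1 was in 23 cells, the orphan receptor Nr4a1 in 18, the deacetylase Hdac1 in 16, Stat3 in 13, Foxo1 in 9 and Prdm12 in 2, and Neurod1 and Pitx1 were listed at 0 in all. Of 23 other hypothalamic factors 17 were detected, led by the homeobox genes Dlx2 in 13 cells, Dlx5 in 10 and Dlx1 and Dlx6 in 8 each. Dlx1 was detected in 5 of the 7 Tbx19 cells and in 3 of the other 18. Hmx2 and Hmx3, in 4 cells each, were found in Isl1 cells only, as were 8.79% of all genes in at least 3 cells. Of the 4 cells of each, 3 had Tbx19, which was in 28% of all cells. How many of all genes fall so often in Tbx19 cells was not counted for Dlx1, Hmx2 or Hmx3. These counts are therefore not read as a result about Tbx19.

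Antisense and neighbouring transcripts bear on how the values are read, because the libraries do not mark strand. Tbx3os2, which lies just past the end of Tbx3 on the opposite strand (chromosome 5, 119685095 to 119691218) and shares 0 exon bases with it, was detected in 5 cells, all of them Tbx3 cells, and was listed at 0 in all 14 others. Among the genes in at least 5 cells, 0.135% were in Tbx3 cells only. Transcripts of Tbx3 that run past its annotated end and true antisense transcripts cannot be told apart here. Six3os1 overlaps Six3 by 106 exon bases and was detected in 7 cells, 6 of them with Six3. Cell 11, the other one, had Six3os1 at 11.8 RPKM and Six3 at 0.

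Finally, the genes whose pattern over the 25 cells was most like each member were listed by Pearson r of log2(RPKM + 1), as a description. The comparison ran over the 9782 other genes detected in at least 3 cells, which share libraries and depth with the members. Of them, 0.0716% had r of 0.6 or more with Nkx2-1, 0.123% with Six3, 0.133% with Six6, 0.174% with Isl1 and with Otp, 0.184% with Tbx19 and 0.225% with Tbx3. For Tbx3 the leading genes were H2-Q1 (r = 0.79, rho = 0.75) and H2-Q2 (0.70 and 0.77), near-identical class I histocompatibility genes whose reads may be split between copies, and the cadherin genes Cdh18 (0.73 and 0.68) and Pcdh7 (0.69 and 0.63). Cdh18 was detected in 9 of the 11 Tbx3 cells and in 1 of the 14 others. Since Cdh18 was picked for its r with Tbx3, this count adds nothing separate from r. The other gene among the leading 5 of Tbx3 was 2700062C07Rik (0.70 and 0.74). For Tbx19 they were Nup210 (r = 0.80, rho = 0.79), Rfc4 (0.76 and 0.66), Gm20754 (0.74 and 0.84), Nkain2 (0.73 and 0.73) and Abhd14b (0.70 and 0.65). Nup210, a gene of the nuclear pore, was detected in all 7 Tbx19 cells at 11.4 to 27.7 RPKM and in 2 of the 18 others, and no other gene in 7 to 9 cells included all 7 (1 of 1536, 0.0651%).

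For Otp, Unc13c, which encodes a protein that prepares synaptic vesicles for release, led at r = 0.83 and rho = 0.81. It was detected in Otp cells 6, 34 and 43 at 12.7 to 14.7 RPKM, was at 0.07 RPKM in cell 1, and reached at most 2.93 RPKM in the others. Of all genes in at least 3 cells, 2 (0.0204%) were in Otp cells only, Unc13c and Fam83d (r = 0.66). Hbb-b2 (0.77), one of several near-identical haemoglobin genes, Dach1 (0.71) and Rnd1 (0.70) completed the 5. For Isl1 the list was Ets2 (r = 0.72, rho = 0.77), Cpne2, Ube2e2, Dpp10 and Tox2 (r = 0.65 to 0.66). Dpp10, an accessory subunit of potassium channels, was in 10 of the 18 Isl1 cells and was listed at 0 in the 7 others. Of the genes in at least 10 cells, 0.354% were in Isl1 cells only. For Nkx2-1 the list was Kctd7, Ssx2ip, Bpgm, Thap11 and Lynx1 (r = 0.61 to 0.67). Kctd7 was in 5 cells, all of them with Nkx2-1, as were 0.283% of the genes in at least 5 cells.

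The lists for Six3 (Psmc3, Tmem126a, Mrpl38, Prkag2 and Lrpap1, r = 0.64 to 0.76) and Six6 (Dgcr6, Ass1, Eef1d, Gpx3 and Nutf2, r = 0.67 to 0.73) held no gene that stayed among the leading 5 when ranks were used. By ranks the leading gene of Six3, Psmc3, had rho = 0.41 and that of Six6, Dgcr6, rho = 0.29. Among the members themselves the highest r was that of Tbx3 with Tbx19 for genes detected in at least 3 cells (r = 0.48, rho = 0.38), followed by Isl1 with Tbx3 (0.37 and 0.48), and the lowest was that of Six3 with Nkx2-1 (-0.34 and -0.30). These values are given as a description. Of the 35 genes listed over the 7 members, 11 were kept when ranks were used and 9 when the 6 cells low in Malat1 were left out, so most of them rest on these choices. Cdh18 and Pcdh7 for Tbx3, Dach1 for Otp, and Nup210, Rfc4 and Gm20754 for Tbx19 were kept in the latter case, as were Lrpap1 for Six3 and Ass1 and Dgcr6 for Six6.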

How the data were processed

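Polyadenylated RNA of 25 hand-picked cells was made into Smart-Seq2 and Nextera XT libraries, per the labels' protocols. These carry no molecular identifiers and mark no strand. The table the authors deposited is named as counts, but its values are read here as RPKM: they are decimals, and their smallest steps scale with gene length. The submitters' processing notes name featureCounts 1.4.6, TopHat2 2.0.14, SAMtools 0.1.19, bcl2fastq and Picard 2.5.0, with mm10 and GRCm38 as builds. The role of each tool, the gene lengths and the annotation were not given in the sources used here.

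Of 33082 rows, 26 named by date numbers were left out, and for 755 repeated symbols the row with the highest sum was used, leaving 30903. Exon lengths came from GENCODE M21 for 22754 symbols. Values times these lengths summed to 1.38 to 1.47 times the expected total, so estimated reads are approximate. The depth estimate was tested on simulated data for these genes at 6 depths and was off by at most 0.0989%, with the same lengths on both sides. A gene was detected at 10 RPKM or more, and likeness used log2(RPKM + 1). Python 3.11.15, pandas 2.3.3, NumPy 2.4.6 and SciPy 1.17.1 were used.

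The members and gene lists were chosen with earlier results of these data known. Named were the members, from each list the genes in most cells and those found in the cells of 1 member only, and the 5 genes most like each member in at least 3 cells. Other named genes were chosen after their values were seen. The planned comparison of proteins was not made. Other detection levels, rescaled cells and omitted cells were tried as alternatives. Some genes of the lists are not reported here.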

Additional observations from a re-analysis of the deposited data

How the results depend on the processing

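Detection was recounted above 0, at 1, 5 and 20 RPKM, at 10 estimated reads, with each cell rescaled to the same sum, without the 6 cells below 20 RPKM of Malat1 and without the 5 shallowest cells. Of 223 recomputed values, 212 stayed close to the reported one and 11 did not. Close meant within the interval of a share, within the SD over cells of a median, or a similar count. These limits are wide with 25 cells. Above 0, Otp at 36% in place of 16% was called close, as was Tbx3 with Nkx2-1 at 44% in place of 24%. The number called close therefore does not measure how far results depend on the detection level. At 20 RPKM the share of cells fell to 68% for Six3 and 52% for Six3 with Six6. Above 0 it rose to 80% for Nkx2-1, 64% for Isl1 with Nkx2-1 and 36% for Nkx2-1 with Otp. Of the 35 genes listed as most alike, 11 remained with Spearman rho, 21 with a pseudocount of 10 RPKM and 9 without the cells low in Malat1. Among the gene lists, 2 of the T-box genes were detected at 1 RPKM in place of 0, and at 20 RPKM 5 of the SOX genes in place of 8 and 1 of the relatives and partners of Nr5a1 and Fezf1 in place of 2. The cause was not tested. No paired analysis was possible because there is 1 group and no test. The pairs of Tbx3 with Th, Isl1 with Cartpt, Nkx2-1 with Sst and Otp with Agrp were added after seeing the data.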
